A study of Saccharomyces cerevisiae with 1 sample.

Results

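Box H/ACA snoRNAs that guide pseudouridylation in the 25S rRNA alone, away from the peptidyl transferase centre, were examined in an untagged yeast cross-linking library. They were taken by name from a list of 10 guides: SNR3, SNR5, SNR8, SNR9, SNR11, SNR32, SNR33, SNR82, SNR84 and SNR191. Of these, 9 were among the 67 RNAs in the table of the snoRNA class. SNR8 had no row in it, so no level is given for SNR8. Several other RNAs taken as box H/ACA also had no row, so this is not particular to SNR8. The list goes by target, not by level, but it was drawn up with earlier results of these data known. Whether it holds every such guide was not checked. The library came from the BY4742 strain of Saccharomyces cerevisiae, which carries no tagged protein, grown to an OD of 0.6 in glucose minimal medium lacking tryptophan. It is the background control of a CRAC experiment, in which RNA is cross-linked to protein in living cells by UV light, purified through the tag of a protein of interest, and sequenced. The library with tagged Dbp6, a DEAD-box RNA helicase of early pre-60S particles, was not analysed here. With 1 library there is no replicate, so no value carries a standard deviation and no difference between RNAs could be tested.

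Box H/ACA snoRNAs fold into hairpins that are followed by a short box H or ACA motif. They assemble with the pseudouridine synthase Cbf5 and with Nop10, Nhp2 and Gar1. An internal loop in a hairpin, the pseudouridylation pocket, pairs with rRNA on each side of the chosen uridine and leaves that uridine exposed to Cbf5, which turns it into pseudouridine. In yeast, rRNA guides generally act on nascent pre-rRNA in the nucleolus.

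The targets fall into a pair of stretches of the 25S rRNA. SNR5, SNR8 and SNR33 guide uridines between nucleotides 960 and 1124, in domain II. SNR3, SNR9, SNR11, SNR32, SNR84 and SNR191 guide uridines between nucleotides 2129 and 2416, a stretch that includes helix 69 of domain IV. SNR82 has targets in both. Targets and groups called early or late below are those of the first or second stretch, by place and not by time. In all, 17 target uridines were taken from the known assignments of yeast guides, 5 for the first group, 9 for the second and 3 for SNR82. All 17 were read as T in the deposited 25S sequence. Their places are given as the number of nucleotides after the first target of the stretch, which is nucleotide 960 or nucleotide 2129.

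The rRNA around selected targets is shown in the DNA letters of the pileup, 5′ to 3′ with 10 nucleotides on each side, because these are the strands that the guides pair with. T stands for U, and the capitals mark the uridines to be modified.
SNR5, 44 nucleotides after nucleotide 960: gtaaagcgaaTgattagaggt
SNR33, 82 nucleotides after nucleotide 960: cttgacctatTctcaaacttt
SNR5, 164 nucleotides after nucleotide 960: tgggccatttTtggtaagcag
SNR3, at nucleotide 2129 and 4 nucleotides after it: aaggggaatcTgacTgtctaattaa
SNR32, 62 nucleotides after nucleotide 2129: caatgtgattTctgcccagtg
SNR191, SNR191, SNR3 and SNR84, at 129, 131, 135 and 137 nucleotides after nucleotide 2129: cgggagtaacTaTgacTcTcttaaggtag
SNR82, at 220 and 222 nucleotides after nucleotide 2129: ctatctactaTcTagcgaaacca
SNR11, 287 nucleotides after nucleotide 2129: cctgttgagcTtgactctagt
The window shared by SNR191, SNR3 and SNR84 holds 4 targets of 3 guides within 9 nucleotides. These targets lie in helix 69, which in the finished ribosome reaches across to the small subunit near the decoding centre. The guide sequences themselves were not used here.

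In the control library, the guides were at the low end of the snoRNA class. Together they received 806 hits per 1000000 reads (RPM), which was 2.63% of the 30680 RPM of the class and 0.0806% of all hits. Their median was 84 RPM, between 1 and 219, and the median of the other 58 rows was 255 RPM. None of the 9 lay above the median of the whole table, 219 RPM, and SNR32 lay exactly on it. Their median rank was 54 of 67, counted from the highest row, SNR128 (the U14 snoRNA), at 3923 RPM.

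SNR32 had the highest level of these guides, 219 RPM at rank 34, and received 27.2% of their hits. The nearest rows were SNR72 at 233 RPM and SNR65 at 188 RPM, both box C/D guides. SNR5 followed with 133 RPM at rank 44, and SNR11 with 132 RPM at rank 45.5, a tie. Levels of 96 RPM for SNR9 and 84 RPM for SNR84 came next. SNR3 and SNR82 had the same level, 70 RPM, at rank 57.5. From SNR32 down to SNR3 and SNR82, these 7 guides spanned 70 to 219 RPM, and whether neighbours in this order differ beyond the spread between experiments cannot be told.

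SNR33 and SNR191 stood apart from the others, each with 1 RPM at rank 65.5. The next row above them was SNR46, an H/ACA guide for the peptidyl transferase centre region, at 10 RPM, and SNR64 was the only row below them, listed at 0. A value of 1 in a table of whole numbers is the smallest above 0 that it can show, so no other RNA is given as a multiple of these guides. Group ratios below that come down to such a value share this limit. SNR33 belongs to the first target group and SNR191 to the second, so each group had 1 such guide.

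**Figure D1:**
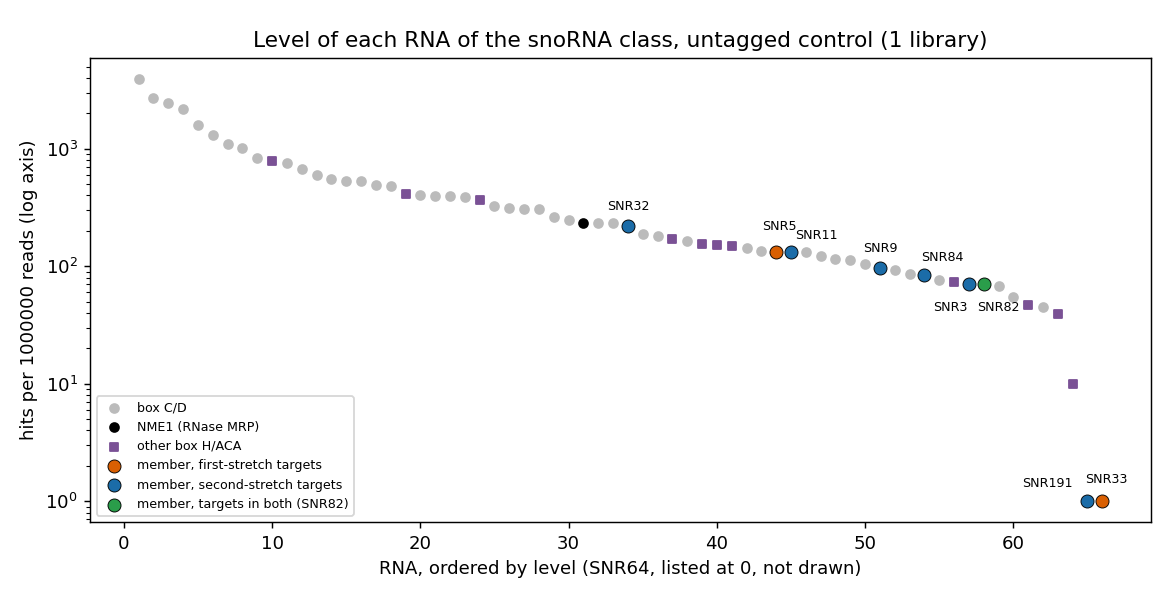
Level in hits per 1000000 reads (log axis) of each RNA of the snoRNA class in the control library, ordered from high to low, with the guides for the 25S rRNA coloured by target stretch and SNR64, listed at 0, left out. From SNR32 at 219 to SNR3 and SNR82 at 70 the guides are mixed with box C/D and other box H/ACA RNAs, and SNR191 and SNR33 lie apart at 1.

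The guides with targets at 960 to 1124 were compared with those at 2129 to 2416. In the table, the first group consisted of SNR5 with 133 RPM and SNR33 with 1 RPM, since SNR8, its remaining guide, had no row. The second group consisted of SNR32 with 219 RPM, SNR11 with 132, SNR9 with 96, SNR84 with 84, SNR3 with 70 and SNR191 with 1. The groups overlapped fully, since both values of the first group lay within the range of the second. The median was 67 RPM in the first group, at a median rank of 54.75, and 90 RPM in the second, at 52.5. The ratio of these medians was 0.744, and the ratio of means was 0.668 (67 against 100.3 RPM). The median of the first group is the midpoint of only 2 values, far from each of them. The table does list SNR64 at 0, and whether the missing row of SNR8 stands for no hits cannot be told. Counted as 0, SNR8 would bring the median of the first group to 1 RPM and the ratio to 0.0111. Without the highest guide of each group, SNR5 and SNR32, the ratio was 0.0119. Without the guides at 1 RPM, a comparison chosen after the values were seen, SNR5 stood at 133 RPM against a median of 96 for the other 5, and the ratio turned to 1.39.

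As shares of the snoRNA class, the first group had 0.437% and the second 1.96%, from 2 and 6 guides. SNR5 alone had 0.434% of the class, SNR32 0.714% and SNR11 0.430%. SNR33 and SNR191 had 0.00326% each. SNR82, whose targets lie in both stretches, had 0.228%. Its 70 RPM lay just above the median of the first group and below that of the second. The ratio of medians was 0.778 with SNR82 counted in the first group and 0.798 with SNR82 in the second.

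The RNAs differ in length, and a longer RNA can give more fragments. In RefSeq's R64 annotation, SNR33 is the shortest of the listed guides with 183 nucleotides and SNR84 the longest with 550. Divided by length, the level was 1165 RPM per kb for SNR32, 652 for SNR5, 513 for SNR9, 512 for SNR11 and 361 for SNR3. SNR82 followed with 261 RPM per kb and SNR84 with 153, while SNR33 had 5.46 and SNR191 had 3.65. The order changed for SNR84, which fell below SNR3 and SNR82, and SNR9 was level with SNR11. SNR32 remained highest and SNR33 and SNR191 lowest. Over the 9 guides, Spearman's rho between level and length was -0.12, given as a description of values from 1 library. The ratio of group medians per kb was 0.754, with 329 RPM per kb in the first group and 436 in the second.

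**Figure D2:**
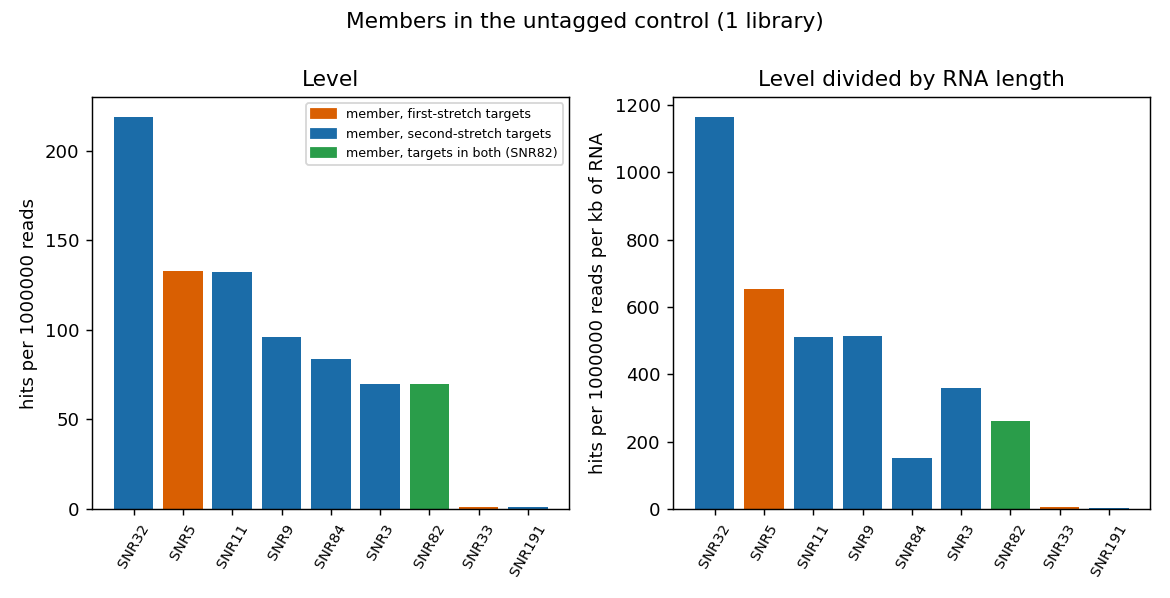
Level of each guide in the control library, in hits per 1000000 reads (left) and per kb of RNA (right), as bars from 0, coloured by target stretch. SNR32 is highest on both scales, at 219 RPM and 1165 RPM per kb, SNR84 drops behind SNR3 and SNR82 once length is taken into account, and SNR33 and SNR191 are close to 0 on both.

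The most similar RNAs are the other box H/ACA snoRNAs, of which 11 were in the table. They include guides for the 18S rRNA and for the peptidyl transferase centre, and SNR30, which is needed for 18S rRNA processing. These 11 are all H/ACA rows off the list, so any further guide for the 25S rRNA alone would be among them. Such a guide would also be missing from the target groups above, and their ratio could differ with it. Their levels ran from 10 RPM for SNR46 to 792 for SNR30, with a median of 151 RPM. The median of the 9 guides on the list was 0.556 times as high. Within all 20 H/ACA rows, SNR32 ranked 4, SNR5 ranked 9, SNR11 ranked 10, and the median rank of the 9 guides was 12. They received 25.4% of the H/ACA hits. Of the other H/ACA rows, 3 of 11 lay above the median of the table, compared with 0 of the 9 guides. The 4 guides for the peptidyl transferase centre region had a median of 161.5 RPM, between 10 and 409.

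Box C/D snoRNAs, most of which guide ribose methylation, had a median of 311 RPM over 46 rows. The H/ACA guides on the list had 0.270 times this median. The median length was 204 nucleotides for these guides, 209 for the other H/ACA RNAs and 97.5 for the C/D RNAs. Per kb, the median was 361 RPM for the guides, 507 for the other H/ACA RNAs and 2704 for the C/D RNAs. As a ratio of medians, the distance to the C/D RNAs was wider on this scale, and that to the other H/ACA RNAs was narrower.

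The guide genes are spread over 8 chromosomes. In the R64 build, SNR32 lies on chromosome VIII at 381540 to 381727 on the plus strand and SNR11 on chromosome XIII at 652275 to 652532, also on the plus strand. SNR5 (842403 to 842606) and SNR8 (832332 to 832521) lie 9.88 kb apart on the plus strand of chromosome XV, and SNR9 (407948 to 408134, minus strand) lies 424 kb before SNR8. SNR3 is on chromosome X at 663749 to 663942 and SNR82 on chromosome VII at 316788 to 317055, both on the plus strand. SNR84 is on the minus strand of chromosome IV at 1492477 to 1493026.

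Both guides at 1 RPM lie on the minus strand, as do SNR9 and SNR84, which had higher levels. SNR33 is on chromosome III at 142364 to 142546 and SNR191 on chromosome XIV at 721938 to 722211. SNR191 is the only one of the 10 inside a protein-coding gene, NOG2, from whose intron it is released. NOG2 encodes a GTPase of pre-60S assembly. Of the 67 RNAs in the table, 7 lie inside a protein-coding gene, and their levels ran from 1 to 1300 RPM with a median of 115, so the 1 RPM of SNR191 was the lowest of these. Rows outside such genes had a median of 226 RPM. SNR33 lies outside any protein-coding gene.

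The pileup of the 25S rRNA is a separate readout of the same library. The paper holds that most rRNA reads of its CRAC libraries are likely contamination by mature rRNA. For each of the 3396 nucleotides it lists the hits and how many of them were substituted or deleted, per 100000 reads as the file is titled, and a read adds a hit to every nucleotide it covers. At the 17 target uridines, the median was 146 hits, between 29 and 11830. The median was 170 hits over all 25S nucleotides and 179.5 over the 852 other uridines. Of the targets, 6 had more hits than the 25S median and 11 had fewer.

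In the first stretch, the targets of SNR5 had 299 and 69 hits, and the target of SNR33 had 137. The targets of SNR8 had 214 hits at nucleotide 960 and 75 hits 26 nucleotides after it. Of these 5 targets, 2 were above the 25S median. Coverage was much lower just after the SNR33 target, where hits went from 137 at the target to 12 within 8 nucleotides downstream. The first SNR5 target lay on a plateau, with up to 352 hits within 10 nucleotides. The second lay in a dip, in which hits went down to 33 at 4 nucleotides further on.

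In the second stretch, the target of SNR32 had 11830 hits, 69.6 times the 25S median and more than 96.3% of all 25S uridines. It lies on the shoulder of a peak of 13435 hits at nucleotide 2178, 13 nucleotides upstream, and kept 88.1% of the peak height. The pair of SNR3 targets ahead of this peak had 521 and 548 hits, or 3.06 and 3.22 times the 25S median. The remaining late targets were lower. In helix 69, SNR191 targets had 59 and 157 hits, and the SNR3 and SNR84 targets had 146 each. The whole window of 29 nucleotides shown above stayed between 58 and 157 hits. The SNR9 target had 69 hits and the SNR11 target had 65, with a fall to 8 hits within 10 nucleotides after the latter.

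SNR82 had 356 hits at its target in the first stretch, the highest there, and 29 at each of its targets in the second stretch. No nucleotide of that stretch had fewer than 29. Within the first stretch, SNR82's target was at the edge of a broad plateau of up to 517 hits within 25 nucleotides.

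**Figure D3:**
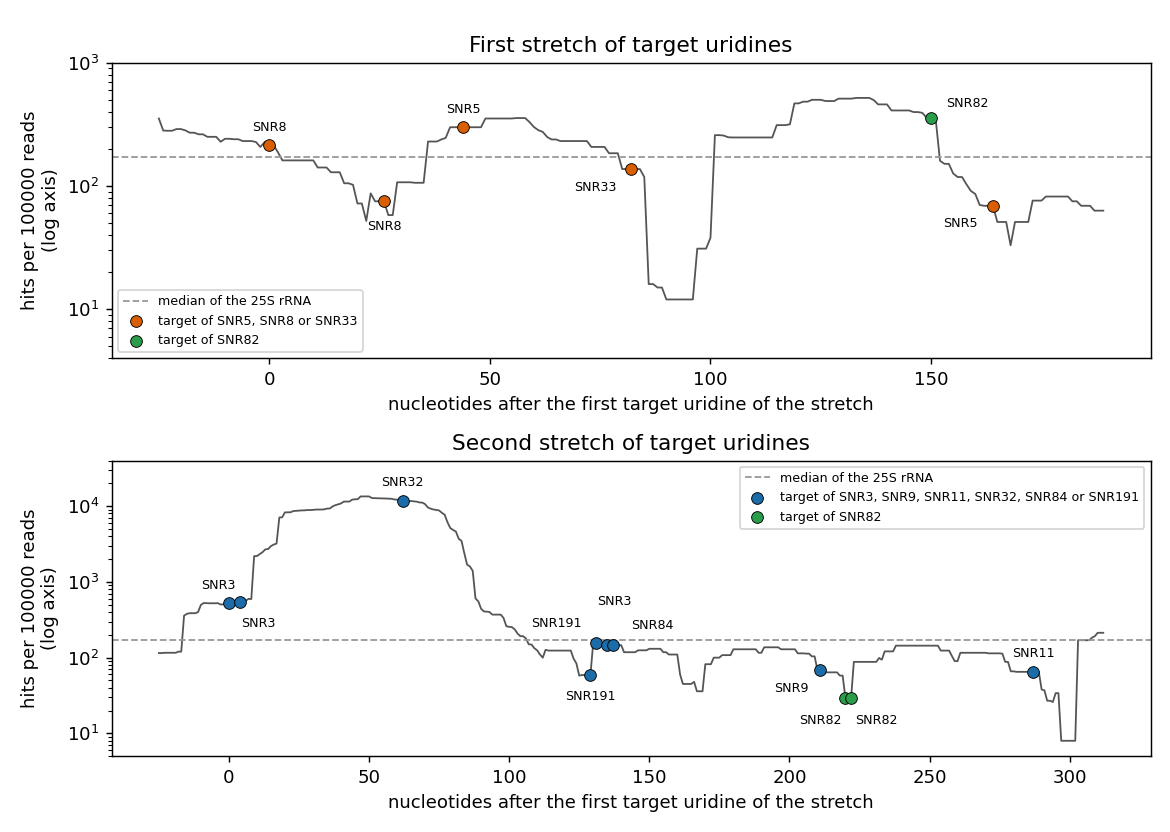
Hits per 100000 reads (log axis) along the 25S rRNA of the control library, as a line, against the distance in nucleotides from the first target of each stretch, with the targets of each guide as points and the 25S median of 170 hits dashed. The SNR32 target (11830 hits) sits on the one high peak, and the SNR82 targets of the second stretch (29 hits) are the lowest points between the first and last target of that stretch, after which the line falls to 8.

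Between the target groups, the median hits differed little, with 137 at the 5 early targets and 146 at the 9 late ones, a ratio of 0.938. The values overlapped, from 69 to 299 in the first group and from 59 to 11830 in the second. The ratio of means was 0.106, and this rests on SNR32, without whose target the late mean was 213.9 instead of 1505. The median did not depend on it, and was 146 without SNR32 as well. That value is the one at the SNR3 and SNR84 targets of helix 69. Both lie on the same flat run of coverage and need not be separate readings. Averaged over 25 nucleotides on each side of the target, the ratio of medians turned to 1.40. Over all nucleotides, the first stretch had a median of 231 hits and the second 131, while their means were 234.7 and 2508.

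The level of a guide and the hits at its targets were set side by side. SNR32 was highest on both, with 219 RPM and 11830 hits. SNR33 and SNR191, at 1 RPM, had median target hits of 137 and 108, below the 25S median of 170 but above those of SNR11 (65) and SNR9 (69), whose own levels were 132 and 96 RPM. Over the 9 guides Spearman's rho was 0.32, and without SNR32 it was 0.024 over 8. The guides and the rRNA share the same library, and these values describe it without a test.

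Reverse transcriptase reads a pseudouridine as a uridine unless it has been chemically treated. Of the hits on the 17 targets, 0.359% carried a substitution or deletion, 49 substitutions and 4 deletions in 14749 hits. The SNR32 target alone held 11830 of these hits, and without it the share was 0.445%. The same share over the other 25S uridines was 1.66%, from 13267 substitutions and 11539 deletions, of which 8831 changes were at nucleotide 2175 alone. The 589 uridines with at least 100 hits had a median of 0.405%, with quartiles of 0 and 1.02%. The 10 targets that reached 100 hits had a median of 0.457%, and 5 of them were above the median of the uridines.

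No change was recorded at 9 of the 17 targets, among them all of SNR5, SNR82, SNR9 and SNR11, and 6 of these 9 had fewer than 100 hits. Among targets with at least 100 hits, 3 of 10 had no change, near the 28.0% of all such 25S uridines. SNR32's target had 36 substitutions and all 4 deletions, 0.338% of its hits. It lies 16 nucleotides after nucleotide 2175, where 8831 of 12351 hits (71.5%) were changed. The highest share was at the SNR3 target in helix 69, with 4 substitutions in 146 hits (2.74%), followed by 1 in 75 at the second SNR8 target (1.33%) and 2 in 157 at the second SNR191 target (1.27%). These shares rest on 1 to 4 changes each. Pooled, 0.252% of hits were changed at the early targets, from only 2 changes in 794 hits, and 0.377% at the late ones. Without SNR32, the late share was 0.643%, from 11 changes.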

How the data were processed

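The study's notes name Novoalign and the R64 genome build. In the methods, the authors trimmed reads with Flexbar, aligned them with Novoalign and counted hits with pyCRAC, for which no versions are given in the sources used here. The authors deposited whole-number hits per snoRNA and per RNA class per 1000000 reads (RPM), and a 25S pileup. Its deposited title gives hits per 100000 reads, while the methods name a limit of 100000 for the pileup tool, so the values may be hits of at most that many reads rather than scaled ones. The pileup values, which the authors made with pyPileup of pyCRAC, were handled as a score for this reason. The 67 rows sum to the class total of 30680 RPM, and the 6 classes to 1000000. The number of reads is unknown, so no counting interval is given, and hits after 16 PCR cycles are not independent molecules. The series' design text names another tagged protein than its title. The untagged control does not depend on it.

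Levels, ranks (ties share their mean rank), shares, medians and window means were computed with Python 3.11.15, numpy 2.4.6 and pandas 2.3.3, and checked on simulated tables. All 67 names matched a RefSeq symbol, which gave lengths and coordinates. Box H/ACA membership came from general knowledge of yeast guides. The plan was to take target uridines from an annotation or a search for guide pairing. The reference used here held neither targets nor guide sequences, so the uridines also came from general knowledge, and were checked only for being T in the pileup. Target places other than the ends of the stretches are given as distances. The pileup is for RDN25-1, and reads from other rDNA copies are not told apart. All listed guides are named, with the rows beside the highest and lowest and the extreme other H/ACA rows. Guides and lists were chosen with earlier results of these data known. The closing section gives the alternatives.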

Additional observations from a re-analysis of the deposited data

How the results depend on the processing

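No paired analysis was possible because only 1 library was analysed, and no replicate could be left out. Since no interval was at hand, any value other than a rank counts as moved once its first 3 significant digits differ. The cause was not tested, except where the construction shows it. The early to late ratio of median levels, 0.744, was 0.668 with means, 0.223 with sums (which follow the number of guides), 0.778 and 0.798 with SNR82 in the early or late group, 0.754 per kb, and 0.770 and 0.879 with pseudocounts of 10 and 100 RPM. Without the highest guide of each group it was 0.0119, since only SNR33 was then left in the early group. It turned to 1.39 without the lowest guide of each group, and also without the guides at 1 RPM, which are the same guides (an alternative chosen after seeing the data). With SNR8 counted as 0, also chosen after seeing the data, it was 0.0111.

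The guides' share of 2.63% was 2.65% without NME1, 3.01% without the highest row and 25.4% of the H/ACA rows. Their median of 84 RPM was 77 without the highest guide, 90 without the lowest, 96 without those at 1 RPM and 77 with SNR8 counted as 0. Its ratio to the other rows, 0.329, was 0.556 against other H/ACA rows, 0.270 against C/D rows, 0.319 against rows with at least 10 RPM, 0.197 per kb and 0.376 without the guides at 1 RPM, so it stayed below 1 in each. The median rank of 54 was 51 and 57 with the filter and per kb, and 12 among the shorter list of H/ACA rows.

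The early to late ratio of 25S hits, 0.938, was 0.876, 0.987 and 1.40 with means over 5, 10 and 25 nucleotides on each side, and 0.106 with means over targets. It did not move without the targets of SNR8 or SNR32, alternatives added after seeing the data. The share of changed hits at targets, 0.359%, was 0.332% for substitutions, 0.0271% for deletions, 0.413% with 1 nucleotide on each side and 0.362% at targets with at least 100 hits. The search for guide pairing, the remaining planned result, could not be run. The number of reads behind each value is unknown, which limits above all the guides at 1 RPM and the targets with few changes.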
